A study of Cervus nippon with 12 samples.

Results

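The miR-99, miR-100 and miR-125 families were followed through chondrogenic induction of deer antler cells. Every listed cattle name of miR-99, miR-100 or miR-125 was taken, whatever its letter or arm, which gave 6 of the 545 names in the deposited lists: miR-99a-5p, miR-99a-3p, miR-99b, miR-100, miR-125a and miR-125b. The cells came from antler tips of male sika deer (Cervus nippon) aged 3 years, and all carry the label of a wild-type genotype. Reserve mesenchyme cells (RMCs), which the labels class as mesenchymal stem cells, were grown in maintenance medium and then held in tubes in chondrogenic medium for 0 days (CP_0), 7 days (CP_7) or 14 days (CP_14), and cultured antler chondrocytes (CC), for which the labels name no induction, made up the fourth group. Each group had 3 small RNA libraries, 12 in all. Biological replicates were made for each tissue type, but the labels tie no library to an animal, so the p-values below measure the spread between libraries only.

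A mature miRNA guides the silencing complex to messenger RNAs through its seed, the bases near its 5′ end. MiR-99a, miR-99b and miR-100 form a family with a shared seed and are best known for repressing components of the mTOR growth pathway. MiR-125a and miR-125b are the vertebrate relatives of lin-4, the first miRNA described in worms, and repress LIN28, the protein that blocks maturation of let-7. In mammals the families are transcribed together: miR-99a lies in a cluster with let-7c and a copy of miR-125b, miR-100 with a copy of let-7a and another copy of miR-125b, and miR-99b with let-7e and miR-125a. The mature miR-125b and let-7a can therefore come from more than the cluster named here. MiR-99a-5p and miR-100 differ by very few bases, so that the way the authors assigned reads could split reads between these names, which was not tested. No listed name had read numbers within 1% of those of a member in every library.

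The deposited values give the reads of each miRNA per 1000000 reads of the library (RPM). Depth ran from 539455 to 1032029 reads on listed miRNAs per library in CP_7, from 2791559 to 4097304 in CP_0 and CP_14, and from 9714090 to 10256572 in CC. MiR-21-5p alone took 60.3% ± 1.2 (SD, n = 3) of all reads in CP_0 and 23.2% ± 1.6 in CP_7, with 48.2% ± 5.0 in CP_14 and 75.2% ± 2.0 in CC. RPM values of all other miRNAs move with that share, and composition factors (TMM) were therefore applied before testing; they averaged 0.88 in CP_0 and 1.92 in CP_7, with 0.99 in CP_14 and 0.60 in CC. Both scales are given below, since the direction of several members depended on the choice. The chondrocyte marker miR-140 was present at 8831 to 11013 RPM in all 12 libraries, CP_0 included, with overlapping ranges in the 4 groups. On the normalized scale its groups did not overlap, with means of 10756 ± 417 (SD, n = 3) in CP_0 and 5100.4 ± 312 in CP_7, and 9818 ± 199 in CP_14 and 17000.5 ± 725 in CC. In the fit of these 2 groups alone, miR-140 was 2.04-fold lower in CP_7 than in CP_0 (limma adjusted p = 2.65e-05). Of the other marker lists, the 4 muscle names summed to 4536 to 6633 RPM in CP_7 against 535 to 683 in CP_0. They summed to 1685 to 1756 RPM in CP_14 and 719 to 752 in CC. MiR-1 made up most of these sums, and miR-206 had 263, 7 and 0 reads in CP_7. The 3 erythroid names summed to 3486 to 5167 RPM in CP_14, 1387 to 1460 in CC and 22.1 to 145 in CP_7. In CP_0 they summed to 11.8, 12.2 and 4192 RPM, so that CP_0 replicate 3 stood apart from replicates 1 and 2. The erythroid sums were almost all miR-451 and miR-486. MiR-144 had 0 reads in every CP_7 and CP_14 library and at most 2 in any library. The 2 endothelial names summed to 188, 323 and 3083 RPM in CP_7 and to 28.4 to 83.6 RPM in the other 9 libraries. Every CP_7 library thus lay above all others, and CP_7 replicate 3 stood furthest apart. Most of that sum was miR-126-3p, as miR-126-5p had at most 5 reads in any CP_7 library. The 6 listed of 7 epithelial names summed to at most 46.2 RPM, and the 4 haematopoietic names to at most 35.4 RPM. The part of other cell types in the results was not tested. In cultures of this kind, fewer cells of a type and less RNA per cell cannot be told apart.

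MiR-100 was by far the most abundant member. It ranked 5th of 545 names in every CP_0 library, 10th or 11th in CP_7, 6th in CP_14 and 5th or 6th in CC. MiR-99a-5p had a median rank of 22 in CP_0 and 13 in CP_7, with 30 in CP_14 and 21 in CC, miR-125b had median ranks of 22 to 30, miR-99b of 27 to 42, and miR-125a of 55 to 64. Levels of different miRNAs are compared here as reads captured, without division by length, and ligation of adapters is known to differ between small RNAs. The passenger arm miR-99a-3p was near the floor. It had 3, 2 and 2 reads in CP_0, 0, 6 and 2 in CP_7, 0, 4 and 1 in CP_14, and 17, 8 and 12 in CC, and did not pass the filter on low counts in any of the 6 comparisons. The libraries with 0 reads, CP_7 replicate 1 and CP_14 replicate 1, allow up to 3.90 and 1.07 RPM (3 reads), a limit that covers counting error only. The remaining 5 members passed the filter everywhere.

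MiR-100 fell to its lowest normalized level on day 7. In RPM as deposited it stood at 29168, 25992 and 26546 in CP_0, 14765, 14841 and 18011 in CP_7, 17639.6, 17868 and 16371 in CP_14, and 21275, 21659.8 and 25020.4 in CC. All CP_0 libraries lay above all others on this scale, CC came next, and CP_7 and CP_14 overlapped. After composition normalization the group means were 31040 ± 361 RPM (SD, n = 3) in CP_0 and 8294 ± 727 in CP_7, with 17406 ± 138 in CP_14 and 37560 ± 1222 in CC. On that scale the order was CC, CP_0, CP_14 and CP_7, with no overlap between neighbours, so that CC and CP_0 changed places between the scales.

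MiR-99a-5p had its highest level on day 7, when normalized miR-100 was lowest. It stood at 2522, 2098 and 2221 RPM in CP_0, 13414, 12673 and 14036 RPM in CP_7, 1646, 1666 and 1466 RPM in CP_14, and 1777, 1878 and 2163 RPM in CC. The 3 CP_7 libraries lay far above the other 9, CP_14 was lowest, and CC and CP_0 overlapped. Composition normalization gave 2596 ± 119 RPM (SD, n = 3) in CP_0 and 7005 ± 450 in CP_7, with 1602 ± 30 in CP_14 and 3213 ± 100 in CC. CP_7 stayed highest and CP_14 lowest on the normalized scale, with no overlap between any neighbours in the order CP_7, CC, CP_0 and CP_14.

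MiR-99b differed from both relatives. Its RPM values were 1575, 1446 and 1437 in CP_0, 1780.0, 1789.7 and 1893 in CP_7, 2009, 1996 and 1889 in CP_14, and 1368, 1274 and 1403 in CC. On this scale CP_14 and CP_7 were high and overlapped, and CC was lowest. With composition factors the order changed to 2244 ± 177 RPM (SD, n = 3) in CC, 1978 ± 38 in CP_14, 1694 ± 15 in CP_0 and 956 ± 92 in CP_7, with no overlap between neighbours. The spread of miR-99b over the groups was the smallest of the 3 relatives on either scale.

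MiR-125b, the more abundant of the lin-4 relatives, had RPM values of 2306, 2012 and 2012 in CP_0, 2926, 2973 and 3374 in CP_7, 1680.4, 1676 and 1576 in CP_14, and 1781, 1814 and 1996 in CC. CP_7 was highest and CP_14 lowest, and no neighbours overlapped. Composition normalization moved CP_7 from the top to the bottom, with 3094 ± 81 RPM (SD, n = 3) in CC, 2403 ± 72 in CP_0, 1656 ± 27 in CP_14 and 1619 ± 143 in CP_7, of which CP_14 and CP_7 overlapped.

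MiR-125a was the least abundant tested member. It had 302.0, 299 and 274 RPM in CP_0, 852, 861 and 827 RPM in CP_7, 312, 302 and 380.3 RPM in CP_14, and 316, 302 and 311 RPM in CC. All CP_7 libraries were high on this scale, while the other 9 lay close together and CP_14 overlapped both CP_0 and CC. After normalization it stood at 516 ± 45 RPM (SD, n = 3) in CC, 446 ± 59 in CP_7, 336 ± 62 in CP_14 and 333 ± 18 in CP_0. Each neighbour overlapped the next in that order, and CP_14 replicate 3, at 407 RPM, lay within the CP_7 range.

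**Figure D1:**
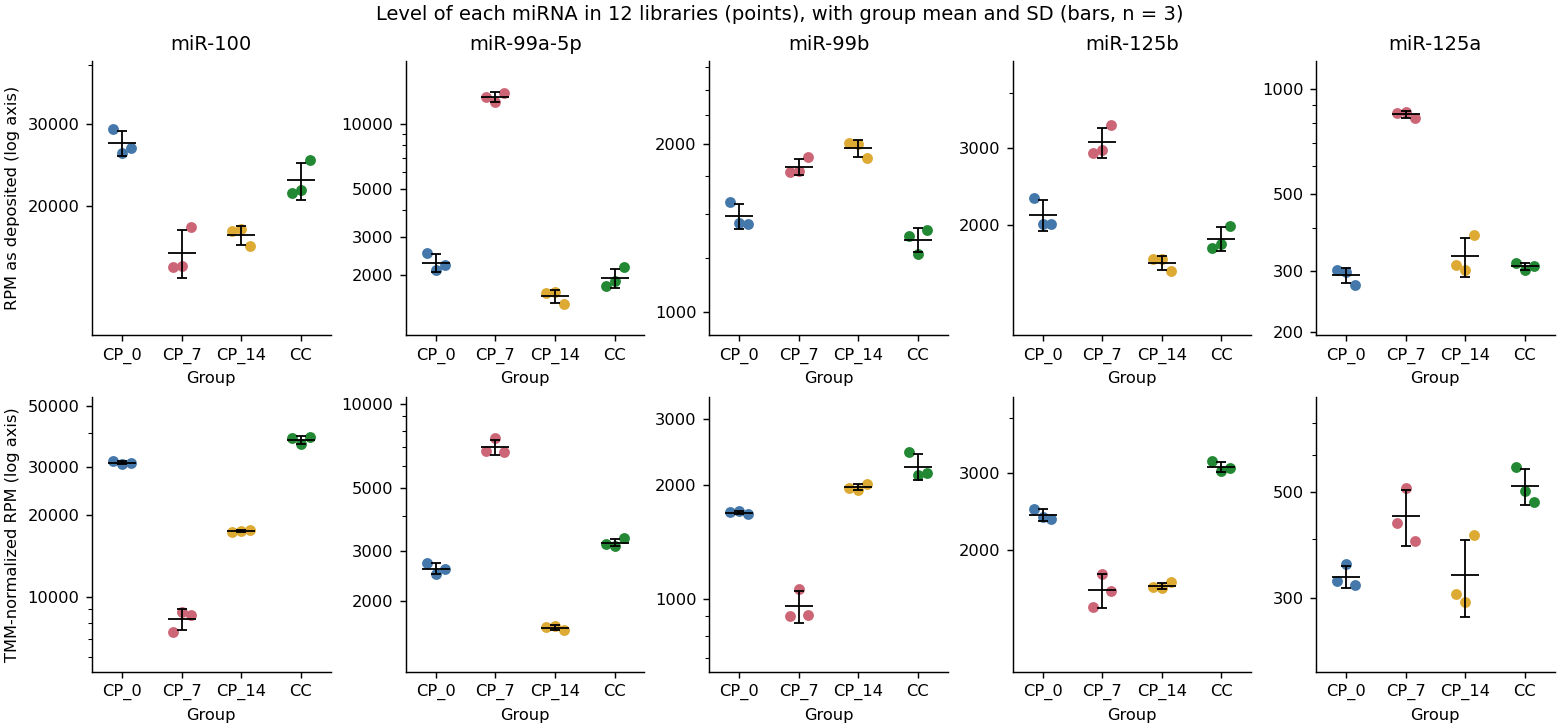
Level of the 5 tested miRNAs in each of the 12 libraries, as deposited RPM (upper row) and as RPM divided by TMM composition factors (lower row), on log axes that do not start at 0; points are libraries, bars the group mean and SD (n = 3). MiR-99a-5p is highest and miR-100 lowest in normalized CP_7 libraries, while miR-99b, miR-125b and the order of CC and CP_0 for miR-100 change direction between the rows.

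How the reads of a family divide among its members depends on neither depth nor composition factors. MiR-100 held 87.9% ± 0.16 (SD, n = 3) of the reads on miR-99 and miR-100 names in CP_0 and 51.0% ± 1.9 in CP_7, with 82.9% ± 0.087 in CP_14 and 87.3% ± 0.20 in CC. MiR-99a-5p took up most of the difference. Its share was 7.35% ± 0.24 in CP_0 and 43.1% ± 1.7 in CP_7, with 7.63% ± 0.17 in CP_14 and 7.47% ± 0.17 in CC. The CP_7 libraries thus stood apart from a pattern that the other 3 groups nearly shared. The share of miR-99b was 4.80% ± 0.087 in CP_0 and 5.87% ± 0.27 in CP_7, with 9.43% ± 0.15 in CP_14 and 5.22% ± 0.35 in CC. It was highest in CP_14, and the CP_7 libraries (5.58% to 6.11%) also lay above those of CP_0 (4.73% to 4.90%). In CP_7 the high miR-99a-5p reads are part of the total, and per miR-100 read miR-99b was alike in CP_7 (0.115) and CP_14 (0.114). Within the miR-125 names, miR-125a held 12.2% ± 0.70 in CP_0 and 21.6% ± 1.6 in CP_7, with 16.8% ± 2.3 in CP_14 and 14.3% ± 0.81 in CC.

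**Figure D2:**
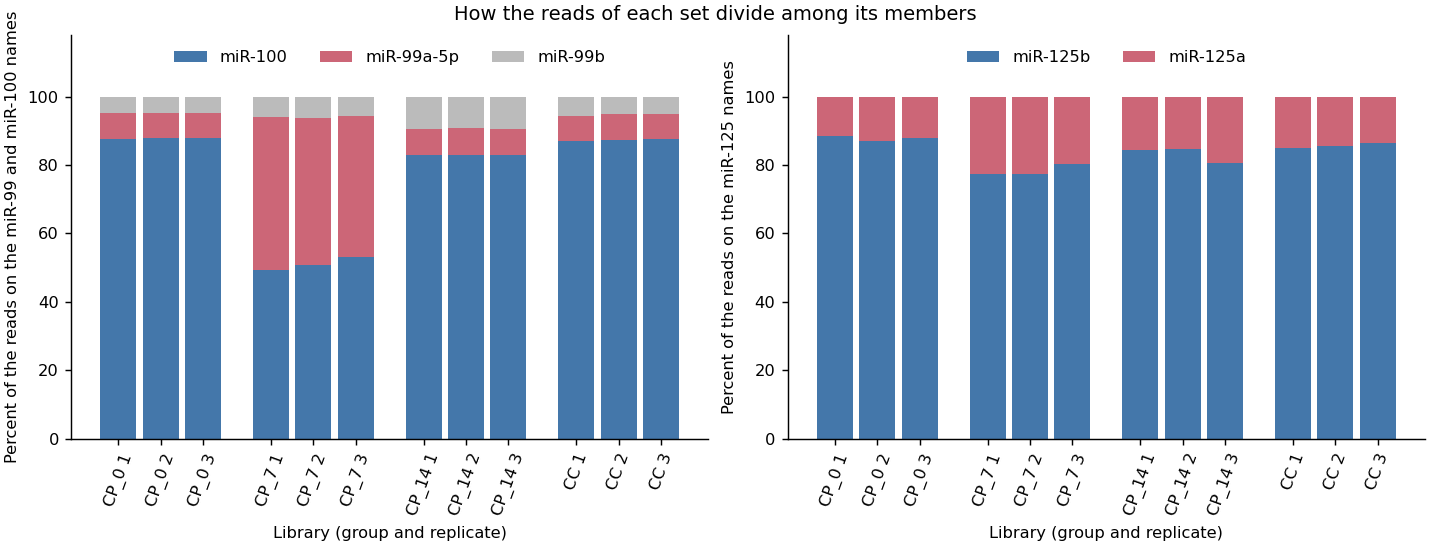
Share of each member in the reads on miR-99 and miR-100 names (left) and on miR-125 names (right), in percent, in each of the 12 libraries; miR-99a-3p, with at most 17 reads, is too small to be seen. MiR-99a-5p takes 41.4% to 44.8% of its set in the 3 CP_7 libraries and 7.10% to 7.74% in the other 9.

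The families together did not take up the same share of the libraries. The miR-99 and miR-100 names held 3.10% ± 0.20 (SD, n = 3) of all reads in CP_0 and 3.11% ± 0.25 in CP_7, with 2.09% ± 0.098 in CP_14 and 2.59% ± 0.23 in CC. CP_0 and CP_7 overlapped in this share. When miR-21-5p was taken out of the total, the values became 7.81% ± 0.42, 4.04% ± 0.24, 4.04% ± 0.21 and 10.5% ± 0.22, so that CP_7 then lay below CP_0 and beside CP_14. The miR-125 names held 0.240% ± 0.018 in CP_0 and 0.394% ± 0.023 in CP_7, with 0.198% ± 0.0018 in CP_14 and 0.217% ± 0.012 in CC. Without miR-21-5p those shares were 0.605% ± 0.042, 0.513% ± 0.019, 0.384% ± 0.035 and 0.877% ± 0.029. Because miR-99a-5p and miR-100 are so similar, their reads were also added together, a step chosen after the values were seen. The sum was 29516 ± 1913 RPM in CP_0 and 29247 ± 2448 RPM in CP_7 as deposited, with overlapping libraries, and 33636 ± 480 against 15299 ± 1045 after composition normalization. In CP_14 the sum was 18885 ± 916 RPM and in CC 24591 ± 2258 RPM as deposited. No direction of the summed level from day 0 to day 7 therefore held on both scales, whereas the split between the names differed on either.

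Comparisons between groups were made with limma on log2(normalized RPM + 1), each on its own 6 libraries, so that fold changes differ from ratios of the group means above, which were normalized over all 12 libraries, and for miR-125a in CC against CP_7 they differ in direction. An adjusted p below 0.05 over all miRNAs tested was taken as a call. The first comparison addressed the first week of induction. All 5 tested members were called between CP_7 and CP_0, 2 higher and 3 lower, where 63.8% of the 246 miRNAs tested were called, 35.8% higher and 28% lower. The groups' normalized values were free of overlap for all 5, as for 67.1% of all tested. MiR-99a-5p rose 2.79-fold (log2 fold change 1.48, SE 0.069, limma adjusted p = 3.42e-06) and miR-100 was 3.62-fold lower (log2 fold change -1.86, SE 0.074, limma adjusted p = 3.42e-06). MiR-100 had the 11th lowest log2 fold change of the 246, and miR-99a-5p the 48th highest. MiR-99b was 1.72-fold lower (log2 fold change -0.78, SE 0.076, limma adjusted p = 0.000102) and miR-125b 1.44-fold lower (-0.52, SE 0.073, limma adjusted p = 0.000659), but both were higher, by 0.29 and 0.55, when RPM values were compared with library size only. MiR-125a was 1.38-fold higher (log2 fold change 0.46, SE 0.11, limma adjusted p = 0.00808). That call was lost with upper-quartile factors (log2 fold change 0.12) and without CP_7 replicate 1 (0.25) or replicate 2 (0.17), whereas miR-100 and miR-99a-5p kept their directions and calls under every alternative tried. With library size only, miR-100 stood at -0.78, miR-99a-5p at 2.55 and miR-125a at 1.53. Without CP_0 replicate 3 all 5 calls remained, with log2 fold changes of -1.88 for miR-100 and 1.46 for miR-99a-5p, and without CP_7 replicate 3, the library with the most endothelial reads, these were -1.97 and 1.42. As deposited, the muscle names summed to 4536 to 6633 RPM in CP_7 against 535 to 683 in CP_0. The endothelial names summed to 188 to 3083 RPM against 47.1 to 63.6. With composition factors, miR-1, miR-133a and miR-133b were called higher (log2 fold changes 2.04, 2.20 and 2.39). Of these, miR-133b had few reads, 2, 3 and 9 in CP_0 and 4, 17 and 37 in CP_7, and its normalized groups overlapped (limma adjusted p = 0.0369). MiR-206 was not called (1.68). MiR-126-3p was not called either (2.34, limma adjusted p = 0.0525). MiR-126-5p was near the floor, with 14, 10 and 8 reads in CP_0 and 2, 0 and 5 in CP_7, and was not tested in this comparison. Its means were 3.51 RPM in CP_0 and 1.91 in CP_7 after normalization, but 3.12 and 3.96 RPM as deposited. The groups overlapped on both scales, so no direction can be given for it.

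The size of these changes depended on the scale because the whole distribution moved with it. With composition factors the median log2 fold change of the 246 miRNAs between CP_7 and CP_0 was 0.075, with 88 calls higher and 69 lower, and with library size only it was 1.12, with 152 higher and 20 lower. Subtracting the median removes by construction a shift that all miRNAs share, so values relative to it hardly move with the scaling and say nothing about stability. Relative to the median, the log2 fold change was -1.93 for miR-100, 1.41 for miR-99a-5p, -0.85 for miR-99b, -0.60 for miR-125b and 0.39 for miR-125a.

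The next comparison addressed the second week of induction, in which miR-99a-5p fell and, on the normalized scale, miR-100 rose. Of the 5 tested members, 2 were called higher and 2 lower, where 52.8% of 246 miRNAs were called, 24.4% higher and 28.5% lower. The normalized values were free of overlap for 3 of the 5, as for 61% of all tested. MiR-99a-5p was 4.61-fold lower in CP_14 than in CP_7 (log2 fold change -2.21, SE 0.066, limma adjusted p = 1.28e-06), the 13th lowest value of the 246. MiR-100 was 1.99-fold higher (log2 fold change 0.99, SE 0.072, limma adjusted p = 3.61e-05) and miR-99b 1.96-fold higher (0.97, SE 0.072, limma adjusted p = 4.09e-05). Both of these rises shrank to 0.13 and 0.11 and were not called with library size only, where miR-99a-5p stood at -3.07. MiR-125a was 1.41-fold lower (log2 fold change -0.49, SE 0.15, limma adjusted p = 0.0296), a call lost with RLE factors (-0.44), with upper-quartile factors (-0.36) and without CP_7 replicate 1 (-0.44) or 2 (-0.31) or CP_14 replicate 1 (-0.41) or 2 (-0.42). MiR-125b gave a log2 fold change of -0.043 (SE 0.070, limma adjusted p = 0.634) and was called lower with library size only (-0.91) and when miR-21-5p was taken out of the library size (-0.34). The median of all miRNAs tested was -0.0089 with composition factors (60 calls higher, 70 lower) and -0.84 with library size only (26 higher, 138 lower). Of the marker names, erythroid miR-451 and miR-486 had the 1st and 2nd highest log2 fold changes of the 246 (8.43 and 6.69), while miR-144 had 0 reads in both groups. Muscle miR-1 and miR-133a were called lower (-0.73 and -0.95), and miR-133b (-0.51) and miR-206 (1.06) were not called. The part of other cell types was not tested.

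Over both weeks together, miR-100, miR-99a-5p and miR-125b fell. Of the 5 tested members, 1 was called higher and 3 lower, where 46% of 250 miRNAs were called, 24.8% higher and 21.2% lower. The normalized values were free of overlap for those 4, as for 56.8% of all tested. MiR-100 was 1.76-fold lower in CP_14 (log2 fold change -0.82, SE 0.046, limma adjusted p = 8.92e-06), miR-99a-5p 1.60-fold lower (-0.68, SE 0.057, limma adjusted p = 7.27e-05) and miR-125b 1.43-fold lower (-0.52, SE 0.054, limma adjusted p = 0.000235). These 3 directions held under every alternative, library size only included, and so did the calls, except under the rule that also asks for at least a 2-fold change, which left 0 called members. MiR-99b was 1.18-fold higher (log2 fold change 0.24, SE 0.051, limma adjusted p = 0.00693), but stood at -0.011 with upper-quartile factors and at 0.023 when miR-21-5p was taken out of the library size, neither of which was called, and DESeq2 did not call it either (0.21). MiR-125a gave a log2 fold change of 0.016 (SE 0.13, limma adjusted p = 0.937), and its groups overlapped on both scales. Upper-quartile factors shifted the median of all miRNAs tested from 0.010 to -0.24 and the calls from 62 higher and 53 lower to 50 and 91.

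Cultured antler chondrocytes were compared with each stage. Against CP_14, all 5 tested members were called, all of them higher in CC, where 74.6% of 276 miRNAs were called, 37.7% higher and 37% lower, and none overlapped in normalized value (80.4% of all tested did not). MiR-100 was 2.14-fold higher (log2 fold change 1.10, SE 0.056, limma adjusted p = 2.82e-07), miR-99a-5p 1.99-fold (SE 0.056 on the log2 scale), miR-125b 1.86-fold (0.89, SE 0.050) and miR-125a 1.54-fold (0.62, SE 0.12). The limma adjusted p was 4.04e-07 for miR-99a-5p and miR-125b and 0.00106 for miR-125a. Of these, miR-125a was at -0.091 with library size only, while miR-100 stood at 0.39, miR-99a-5p at 0.28 and miR-125b at 0.18. MiR-99b differed least (log2 fold change 0.17, SE 0.059, limma adjusted p = 0.0245). It stood at -0.54 with library size only and was then called lower, and its call was lost with RLE factors, in the fit over all 12 libraries, with DESeq2 (0.11), and without CP_14 replicate 1 (0.16) or 2 (0.16) or CC replicate 1 (0.12). Library size only gave a median of -0.54 over all miRNAs tested, with 40 calls higher and 163 lower, against 0.086, 104 and 102 with composition factors.

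Against CP_0 the differences of CC were small. All 5 tested members were called higher, where 55.8% of 260 miRNAs were called, 30% higher and 25.8% lower, and none overlapped in normalized value (63.5% of all tested did not). The log2 fold changes were 0.14 for miR-100 (SE 0.034), 0.18 for miR-99a-5p (SE 0.043), 0.23 for miR-125b (SE 0.030), 0.27 for miR-99b (SE 0.053) and 0.50 for miR-125a (SE 0.073), with limma adjusted p values from 0.000944 to 0.0125. These directions depended on the composition factors, since with library size only miR-100 was called lower (-0.27), miR-99a-5p, miR-125b and miR-99b stood at -0.23, -0.18 and -0.14 without a call, and miR-125a stood at 0.086 without a call. The call of miR-100 was lost with RLE factors (0.13) and with DESeq2 (0.096), and that of miR-99a-5p with DESeq2 (0.13). The median of all miRNAs tested went from 0.053 to -0.33 with library size only, and the calls from 78 higher and 67 lower to 30 and 112.

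Against CP_7, 3 of the 5 tested members were called higher and 1 lower, where 67.4% of 276 miRNAs were called, 29% higher and 38.4% lower. Those 4 were free of overlap in normalized value, as were 73.2% of all tested. MiR-100 was 3.75-fold higher in CC (log2 fold change 1.91, SE 0.065, limma adjusted p = 1.22e-06), with the 19th highest value of the 276, and miR-99a-5p was 2.63-fold lower (-1.40, SE 0.061, limma adjusted p = 2.30e-06). With library size only these were 0.52 and -2.79, both still called. MiR-99b (log2 fold change 0.96, SE 0.066, limma adjusted p = 1.74e-05) and miR-125b (0.66, SE 0.056, limma adjusted p = 5.65e-05) were higher, but with library size only they were called lower, at -0.43 and -0.73. MiR-125a gave -0.060 (SE 0.094, limma adjusted p = 0.608), was called lower with library size only (-1.45) and called higher with upper-quartile factors (0.46) and without CP_7 replicate 2 (0.56), so that no direction can be given for it. Without CP_7 replicate 2 the other values were 2.47 for miR-100, -0.82 for miR-99a-5p, 1.56 for miR-99b and 1.25 for miR-125b. The median of all miRNAs tested was -0.089 (80 calls higher, 106 lower), and -1.44 with library size only (20 higher, 191 lower). Erythroid miR-451 and miR-486 again had the 1st and 2nd highest log2 fold changes, of 276 here (7.31 and 5.63), while miR-144 had at most 2 reads in any CC library and 0 in CP_7. The 6 comparisons share libraries and are not independent of each other.

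**Figure D3:**
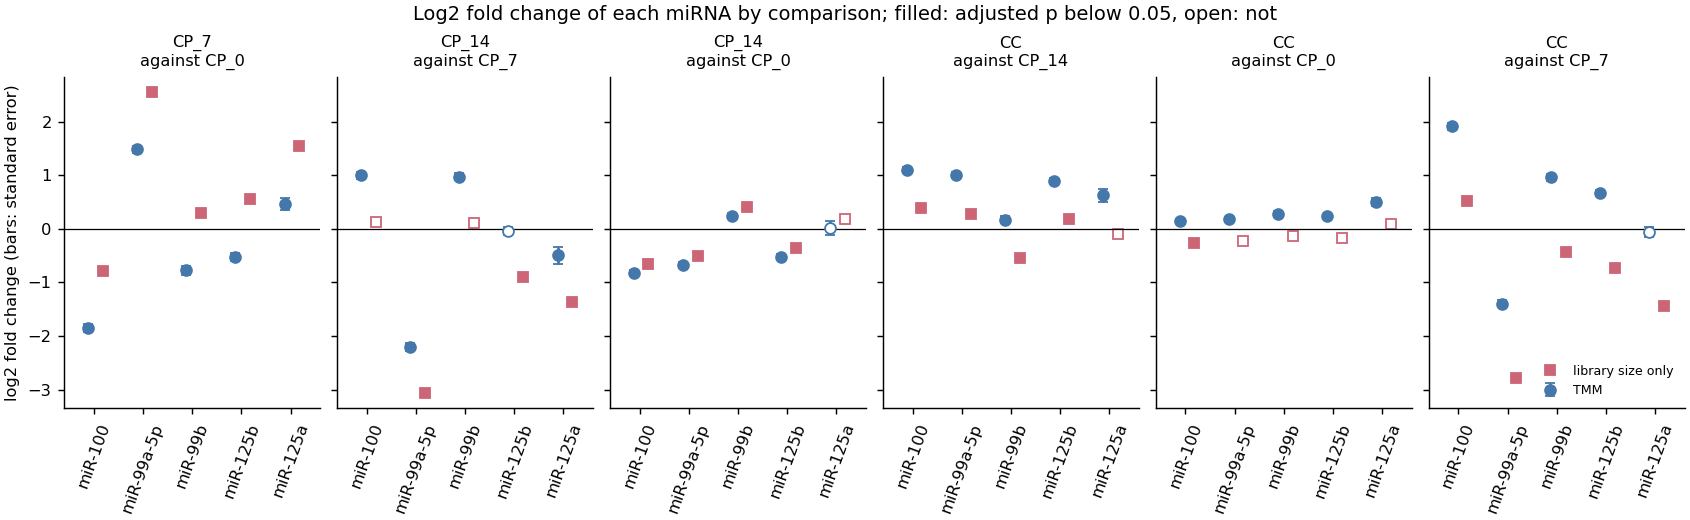
Log2 fold change of the 5 tested miRNAs in the 6 comparisons with composition factors (circles, bars SE) and with library size only (squares, no bars); filled symbols have an adjusted p below 0.05. MiR-100 and miR-99a-5p lie on opposite sides of 0 in the comparisons of CP_7 with CP_0, of CP_14 with CP_7 and of CC with CP_7 on both scales, whereas miR-99b and miR-125b cross 0 between the scales when CP_7 is compared with CP_0 or CC.

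Ratios of reads within a library were tested next, since they need no scaling. Of 9 ratios, all differed over the 4 groups in an exact permutation test of the F ratio over the 369600 divisions of the 12 libraries, with Benjamini-Hochberg adjustment over the 9. With 3 libraries against 3, a pair of groups cannot give an exact p below 0.1. The number of miR-99a-5p reads per miR-100 read was 0.0865, 0.0807 and 0.0837 in CP_0, 0.908, 0.854 and 0.779 in CP_7, 0.0933, 0.0932 and 0.0895 in CP_14, and 0.0835, 0.0867 and 0.0865 in CC. The CP_7 libraries lay about an order of magnitude above all others. The ratio was 10.1-fold higher in CP_7 than in CP_0 (log2 difference 3.34, SE 0.070), with an adjusted exact permutation p of 0.000584 over the 4 groups (F = 1916). CC and CP_0 overlapped in this ratio (log2 difference 0.033, SE 0.033, exact permutation p = 0.5), and CP_14 lay 1.10-fold above CP_0 without overlap.

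The other ratios within the families gave each member its own course. MiR-99b per miR-100 was 0.0546 ± 0.00091 (SD, n = 3) in CP_0 and 0.115 ± 0.0089 in CP_7, with 0.114 ± 0.0019 in CP_14 and 0.0597 ± 0.0042 in CC (adjusted exact permutation p = 0.00167). CP_7 and CP_14 overlapped, and CC and CP_0 were the low groups. MiR-125a per miR-125b was 0.139 ± 0.0091 in CP_0 and 0.275 ± 0.026 in CP_7, with 0.202 ± 0.034 in CP_14 and 0.167 ± 0.011 in CC (adjusted exact permutation p = 0.000292), and no pair of groups overlapped. The unadjusted p of that ratio, 6.494e-05, is the smallest that the 369600 divisions can give.

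Partners of the same cluster did not keep a fixed ratio. In the cluster of miR-99b, let-7e and miR-125a, miR-99b per let-7e was 3.55 ± 0.067 in CP_0 and 1.42 ± 0.13 in CP_7, with 3.74 ± 0.086 in CP_14 and 3.44 ± 0.22 in CC (adjusted exact permutation p = 0.0019), and miR-99b per miR-125a was 5.09 ± 0.23, 2.15 ± 0.12, 6.0 ± 0.90 and 4.35 ± 0.15 in the same order (adjusted exact permutation p = 0.000584). In both ratios the CP_7 libraries lay below all others, with miR-99b low relative to its partners. In the cluster of miR-100 and let-7a, miR-100 per let-7a-5p was 5.22 ± 0.12 in CP_0 and 0.775 ± 0.16 in CP_7, with 2.96 ± 0.078 in CP_14 and 5.09 ± 0.26 in CC (adjusted exact permutation p = 0.000584). This was 6.82-fold lower in CP_7 than in CP_0, though the mature let-7a can come from several loci. MiR-100 per miR-125b was 12.9 ± 0.28 in CP_0 and 5.13 ± 0.19 in CP_7, with 10.5 ± 0.14 in CP_14 and 12.1 ± 0.34 in CC (adjusted exact permutation p = 0.000292). MiR-99a-5p per miR-125b was 1.08 ± 0.033, 4.34 ± 0.22, 0.968 ± 0.034 and 1.04 ± 0.043 (adjusted exact permutation p = 0.000584), so that these names had nearly equal reads outside CP_7.

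MiR-99a-5p and let-7c, which share a cluster, had the narrowest range of group means on the log2 scale among the 9 ratios. Their ratio was 8.31 ± 0.31 in CP_0 and 5.71 ± 0.97 in CP_7, with 6.76 ± 0.72 in CP_14 and 7.00 ± 0.71 in CC. It differed over the 4 groups with an adjusted exact permutation p of 0.0226, which went to 0.0697 without CP_0 replicate 1, 0.0521 without CP_0 replicate 2 and 0.0503 without CP_7 replicate 3. Both names rose between CP_0 and CP_7, let-7c by a log2 fold change of 2.03 (SE 0.14) and miR-99a-5p by 1.48. The let-7 partners are growth-restraining miRNAs of a large family with many similar members. All 3 of 3 partners rose in CP_7 against CP_0, where 35.8% of all tested were called higher, with log2 fold changes of 0.91 for let-7a-5p (SE 0.11) and 0.54 for let-7e (SE 0.11), and all 3 fell from CP_7 to CP_14, where 28.5% were called lower, by 0.96, 2.45 and 0.42 on the log2 scale for let-7a-5p, let-7c and let-7e. Between CP_0 and CP_14 only let-7c was called among these partners (log2 fold change -0.37).

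**Figure D4:**
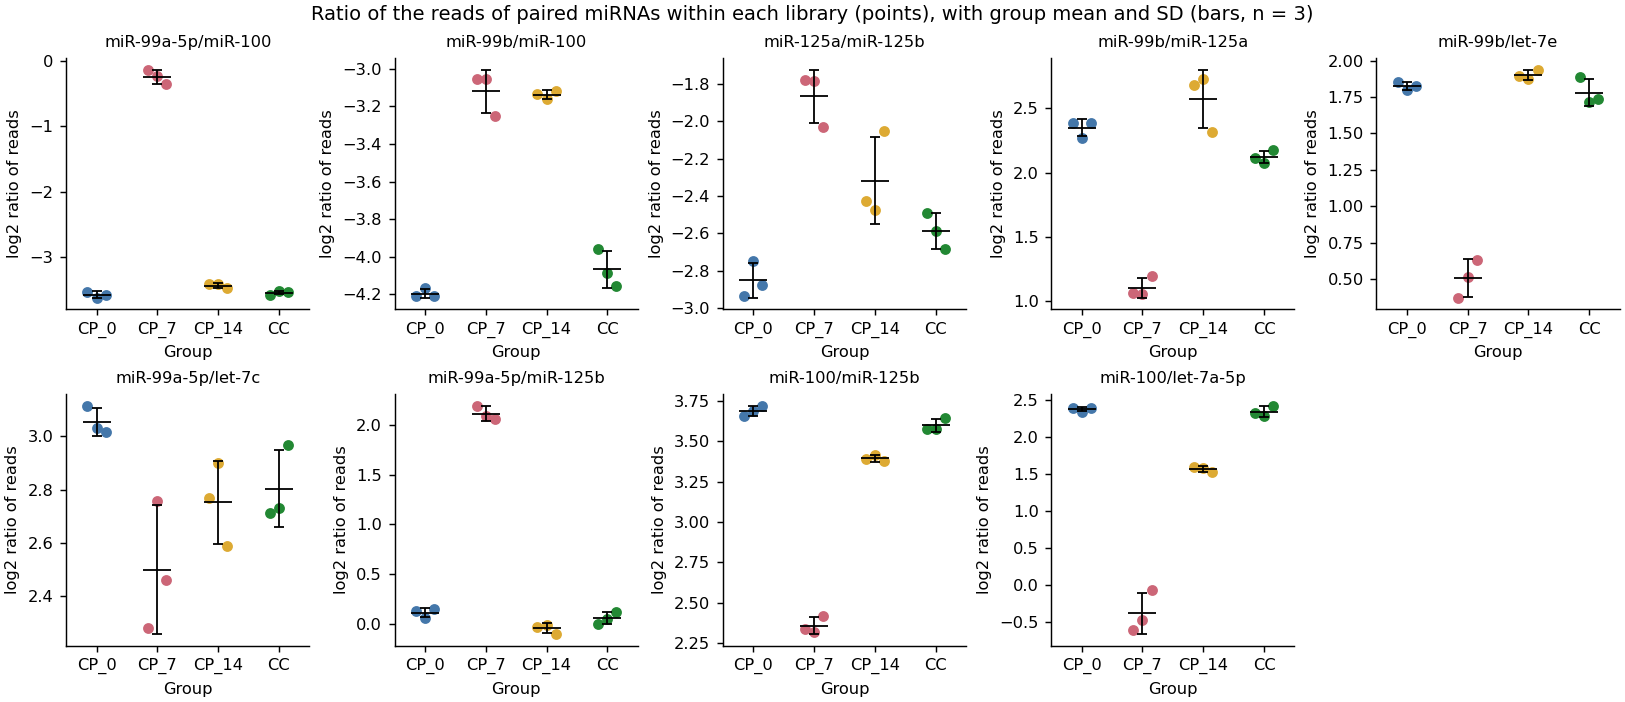
Log2 ratio of the reads of the first to the second named miRNA within each library, for 9 pairs, on axes that do not start at 0; points are libraries, bars the group mean and SD (n = 3). CP_7 stands apart from the other 3 groups for miR-99a-5p per miR-100, miR-99a-5p per miR-125b, miR-100 per miR-125b, miR-100 per let-7a-5p, miR-99b per let-7e and miR-99b per miR-125a.

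The miR-10 relatives, which resemble the miR-99 and miR-100 family in sequence and lie in Hox gene clusters, were rare. MiR-10a had 19.8, 19.3 and 31.6 RPM in CP_0, 27.3, 19.4 and 200.2 RPM in CP_7, 30.4, 24.1 and 22.3 RPM in CP_14, and 9.07, 10.3 and 11.3 RPM in CC. CP_7 replicate 3 alone was high for miR-10a. MiR-10b reached 345 RPM in that library and lay between 22.8 and 64.0 RPM in the others. Neither was called between CP_7 and CP_0 (log2 fold changes -0.012, SE 0.77, and 0.070, SE 0.71).

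The 166 names with at least 10 reads in every library, the 5 tested members among them, were used. The non-members among them were ranked by likeness to each member, as Pearson's r of log2(normalized RPM + 1) over the 12 libraries. These values are descriptions, since the libraries of a group are alike and every name in a library is divided by the same composition factor. Closest to miR-99a-5p were let-7b, miR-3596 and let-7c, each with r = 0.97, of which let-7b and miR-3596 have nearly the same reads and count as the same signal. On RPM as deposited these r values were 0.98 to 0.99. Closest to miR-100 were miR-193b (r = 0.98), miR-660 (0.98) and miR-197 (0.97), closest to miR-99b miR-3431 (0.98), miR-101 (0.97) and miR-2387 (0.97), and closest to miR-125b miR-93 (0.98), miR-17-5p (0.97) and miR-106b (0.97). MiR-125a was nearest to miR-6119-5p (0.97), miR-342 (0.96) and miR-7 (0.95). The likeness of miR-100 rested on the composition factors, as r with miR-193b was -0.46 on deposited RPM, with miR-660 -0.16 and with miR-197 -0.073. The miR-99b and miR-125b neighbours also had lower values on that scale, from 0.029 to 0.71 for miR-99b and from 0.13 to 0.66 for miR-125b, and those of miR-125a lay between 0.74 and 0.83.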

How the data were processed

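The 12 small RNA libraries (NEBNext kit, Illumina NovaSeq) were made by the authors from the cultured cells. The submitters' processing notes name CASAVA, bcl2fastq 1.8.4 and Bowtie. Details of trimming, counting, genome build and database version were not given in the sources used here. Deer reads carry cattle names. The values the authors deposited are RPM under a header that says TPM, summing to 1000000 in each library with no division by length. All values (100% in each library) were whole multiples of 1 read within 0.01 read, so the reads were recovered. Without molecular identifiers, reads cannot be taken as independent molecules.

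Each comparison was fitted on its 6 libraries in R 4.3.3 with limma 3.58.1 (intensity trend, two-sided) on log2(TMM-normalized RPM + 1) over miRNAs that passed filterByExpr of edgeR 4.0.16 (minimum count 10, minimum total 15), with Benjamini-Hochberg adjustment over all miRNAs tested and a threshold of 0.05. Fold changes on this scale understate those of low miRNAs. On the recovered reads, edgeR's quasi-likelihood test called 160 miRNAs for CP_7 against CP_0, 134 for CP_14 against CP_7, 112 for CP_14 against CP_0, 205 for CC against CP_14, 142 for CC against CP_0 and 190 for CC against CP_7, where limma called 157, 130, 115, 206, 145 and 186, and it called the same number of members in each. DESeq2 1.42.0, other scalings, pseudocounts, filters, one fit of all libraries and leaving out each library were alternatives. The fits were tested on simulated data.

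Names given in the text are all members, let-7 cluster partners, miR-10 relatives, miR-21-5p, marker lists and the 3 names most like each member. Members, lists, ratios and tests were chosen with earlier results of these data known. The labels number the replicates 1 to 3 in each group. Deviations of same-numbered libraries from their group means correlated above 0.1 in all 3 pairs only for CC against CP_7. The values were r = 0.13, 0.12 and 0.17, and the replicate block changed no member's call there. Differently numbered libraries reached r = 0.34 in CC against CP_14, so these values do not establish that the numbers pair the libraries. No 2 libraries of a group agreed within sampling noise. Chi-square per degree of freedom was 4.92 for CP_14 replicates 1 and 2, the most alike pair, and at least 25.6 for every other pair. Against CP_14 replicate 3, CP_14 replicates 1 and 2 gave 252 and 213. Mature sequences were not used here.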

Additional observations from a re-analysis of the deposited data

How the results depend on the processing

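Of the recomputed log2 fold changes of members, 483 kept their direction and call, 25 kept the direction and lost the call, 3 gained a call and 29 changed sign. Requiring at least 2-fold in addition to the adjusted p left 2 called members for CP_7 against CP_0, 1 for CP_14 against CP_7, 0 for CP_14 against CP_0, 1 for CC against CP_14, 0 for CC against CP_0 and 2 for CC against CP_7, by construction a stricter rule. For CC against CP_0, library size only left 1 called member and DESeq2 3. Leaving out each library gave 4 to 5 called members for CP_7 against CP_0, 3 to 4 for CP_14 against CP_7, 4 for CP_14 against CP_0, 4 to 5 for CC against CP_14, 5 for CC against CP_0 and 4 to 5 for CC against CP_7.

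With library size only, log2 fold changes of called members changed sign to 0.55 (miR-125b) and 0.29 (miR-99b) for CP_7 against CP_0, to -0.54 (miR-99b) and -0.091 (miR-125a) for CC against CP_14, to -0.27 (miR-100), -0.23 (miR-99a-5p), -0.18 (miR-125b) and -0.14 (miR-99b) for CC against CP_0, and to -0.73 (miR-125b) and -0.43 (miR-99b) for CC against CP_7. Upper-quartile factors turned miR-99b for CP_14 against CP_0 to -0.011. The other sign changes were of values that had no call in the fits of 6 libraries with TMM factors. Of these, miR-125a for CC against CP_7 was called in the changed direction with upper-quartile factors (0.46) and without CP_7 replicate 2 (0.56). MiR-125b for CP_14 against CP_7 went to 0.013 (RLE factors), 0.096 (upper quartile), 0.036 (all 12 libraries in 1 fit), 0.10 (without CP_7 replicate 2) and 0.035 (without CP_7 replicate 3), with -0.071 to 0.10 over the left-out libraries. MiR-125a for CP_14 against CP_0 went to -0.24 (upper quartile), -0.20 (miR-21-5p left out of the library size), -0.0025 (all 12 libraries), -0.023 (without CP_0 replicate 3) and -0.16 (without CP_14 replicate 3), with -0.16 to 0.065 over the left-out libraries. MiR-125a for CC against CP_7 went to 0.10 (RLE), 0.46 (upper quartile), 0.18 (without miR-21-5p), 0.21 (all 12 libraries), 0.077 (DESeq2), and 0.30, 0.56 and 0.10 without CP_7 replicate 1, 2 and 3, with -0.10 to 0.56 over the left-out libraries. The cause was not tested.

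Whether the replicate numbers pair the libraries is not known. In the comparisons other than CC against CP_7, the replicate block left miR-125a for CP_14 against CP_7 without a call (log2 fold change -0.49, limma adjusted p = 0.0949). It did the same to miR-99b for CC against CP_14 (0.17, limma adjusted p = 0.0737), and it changed no other member's call. Composition factors computed without the 5 tested members, an alternative chosen after seeing the data, changed no call. CP_7 had the shallowest libraries, so its values carry the largest counting error, though each tested member had at least 446 reads there. The deepest CP_7 library (1032029 reads) lay below the shallowest of the other groups (2791559 reads). Day 7 of induction and whatever kept these libraries shallow therefore cannot be told apart in any comparison with CP_7.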
